A study of Arabidopsis thaliana with 12 samples.

Results

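YUC2 (AT4G13260), GH3.1 (AT2G14960), GH3.3 (AT2G23170) and WES1 (AT4G27260, also called GH3.5) are genes of the synthesis and inactivation of the growth hormone auxin in Arabidopsis thaliana. They were chosen by name in the matrix of robust multi-array average (RMA) values, with earlier results of these data known. All 4 were found, each with 1 probe set, among 13356 genes named on the array and 22746 probe sets tested. RNA of 10-day-old plants without their roots was hybridised to 12 Affymetrix arrays, 3 for each of 4 groups. After 9 days in continuous white light at 22 °C, all plants had been treated for 24 hours. FRABA plants received white light with supplemental far-red light and abscisic acid (ABA), FR plants the same light without ABA, WLABA plants white light with ABA, and WL plants white light alone with a mock treatment. As labelled, white light was given at 80 and far-red light at 6 mmol/m2sec, and ABA at 1 mM. Whether these prefixes are the intended ones could not be checked. The labels used here name neither an ecotype nor a mutant or transgene, and they number 3 biological replicates per group. In such bulk RNA, fewer cells of a type and less RNA per cell cannot be told apart.

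Auxin (indole-3-acetic acid) is made from tryptophan by way of indole-3-pyruvic acid, which the YUC flavin monooxygenases turn into auxin in the rate-limiting step. GH3 enzymes join auxin to amino acids, which stores or inactivates it, and many GH3 genes are themselves induced by auxin, which closes a feedback loop. Supplemental far-red light imitates the shade of neighbouring leaves, and auxin synthesis is part of the growth response to it. ABA is a hormone of the drought response. The 4 groups allow the ABA effect to be followed in either light and the far-red effect at either ABA level, which is the stated design of the series.

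Of the 3 members with a detectable signal, WES1 rose with ABA in both lights, while GH3.3 and YUC2 fell with ABA under far-red light. In white light GH3.3 and YUC2 also differed downward with ABA (-0.22 and -0.16 log2 units), but did not pass the threshold named below. Averaged over the lights, ABA lowered both of them. For no member was the ABA effect shown to differ between the lights. WES1 was higher with either treatment alone, and its mean was highest with both. GH3.3 was high under far-red light alone, and the mean of YUC2 was lowest where far-red light and ABA were combined. For WES1 and YUC2, FRABA against WLABA did not pass the threshold named below. The far-red rises of WES1 and GH3.3 without ABA passed it, but each was lost in some of the alternative fits. GH3.1 was not detected on any array. Differences were tested with limma on all arrays, with p-values adjusted by the Benjamini-Hochberg method over all probe sets and a threshold of 0.05. A gene is called where it passed. With 3 arrays a group the number of arrays limits the precision, and the median standard error of a difference between groups was 0.101 log2 units.

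**Figure D1:**
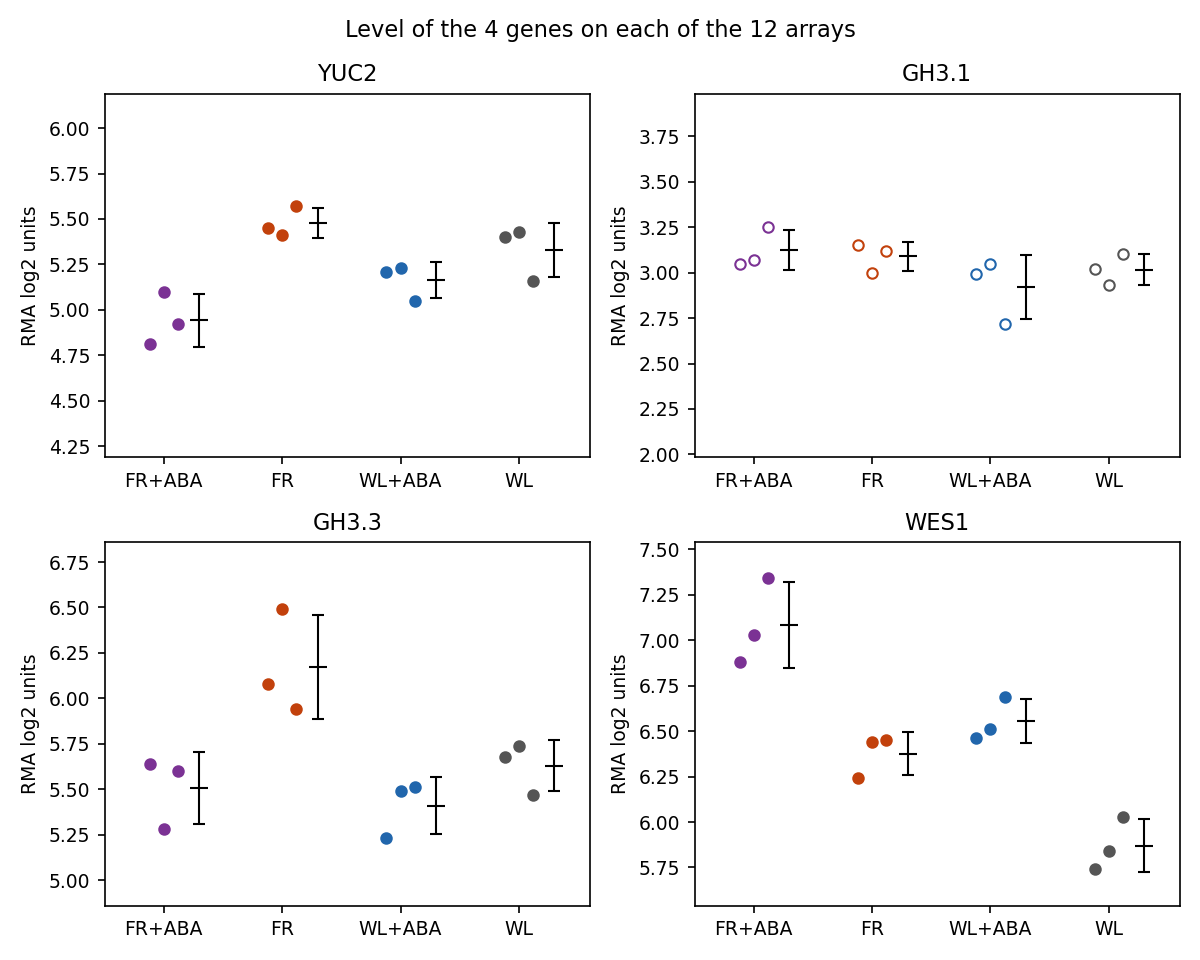
RMA log2 level (vertical axis, the same span in each panel) of YUC2, GH3.1, GH3.3 and WES1 on every array of the groups FRABA (FR+ABA), FR, WLABA (WL+ABA) and WL. Points are arrays, filled where the detection call was present and open where it was absent, and bars show mean ± SD (n = 3). WES1 arrays lay between 6.88 and 7.34 in FRABA and between 5.74 and 6.03 in WL, and all 12 GH3.1 points are open.

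Between 60.6% and 67.2% of probe sets were called present on an array, and the median log2 level of an array was 5.46 at the lowest and 5.62 at the highest. A listed gene counts as measured here where a probe set was named for that gene alone. Other listed genes may be on the array under probe sets that were not named. Of the green tissue markers, 6 of 15 were measured, and all 6 were called present on all 12 arrays. RCA, the Rubisco activase, lay between 13.30 and 13.38 log2 units. LHCB4.2, a minor antenna protein of photosystem II, was the only one of the 6 to pass in a single-factor comparison, and fell with far-red light without ABA (12.04 ± 0.12 in FR and 12.41 ± 0.14 in WL, SD, n = 3 each, difference -0.37, SE 0.09, limma adjusted p = 0.027). It also fell in averaged far-red light (-0.29, adjusted p = 0.0139) and in FR against WLABA (-0.42, adjusted p = 0.00487), and its part in the far-red differences of GH3.3 and WES1 was not tested. The other green tissue markers did not follow it in FR against WL. SBPASE (0.16), LHCB4.3 (0.15), PRK (0.09) and RCA (0.017) differed upward and LHCB4.1 by -0.029, and the median of the 6 was 0.053. Of 12 root markers 3 were measured. EXPA7 and EXPA18 were called absent on all 12 arrays, while PYK10, a beta-glucosidase of ER bodies, was present on all of them at 11.23 to 11.77 log2 units, and none of the 3 was called in any of the 4 pairwise effects. All 6 measured genes of the ABA check (COR15A, COR15B, COR47, LTI30, LEA4-5 and HIS1-3) rose with ABA in both lights, and COR15B also fell with far-red light, by a log2 difference of -1.19 with ABA and -0.96 without (limma adjusted p = 0.0233 and 0.0181). Of the far-red check 2 of 16 genes were measured and 1 passed. IAA29, an auxin-inducible shade marker, rose in FR against WL (1.87-fold higher by the group means, present on 1 of 3 FR arrays and absent on all WL arrays, limma adjusted p = 6.0e-04). FHL, a homologue of the phytochrome A import factor FHY1, differed the other way and did not pass (between 3.08 and 3.28 log2 units in FR and between 3.29 and 3.45 in WL, difference -0.16, adjusted p = 0.36).

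YUC2 is the synthesis gene among the 4. Its level on the 3 arrays was 4.81, 5.10 and 4.92 log2 units in FRABA, 5.45, 5.41 and 5.57 in FR, 5.21, 5.23 and 5.05 in WLABA, and 5.40, 5.43 and 5.16 in WL. All FRABA arrays lay below all FR arrays, and they also lay below all WL arrays, while WLABA overlapped both FRABA and WL. Under far-red light, YUC2 fell with ABA, with 4.95 ± 0.15 in FRABA and 5.48 ± 0.08 in FR (SD, n = 3 each). The log2 difference was -0.53 (SE 0.10, 95% interval -0.75 to -0.32, limma adjusted p = 0.00334), or 1.45-fold lower. In white light the ABA difference was -0.16 (SE 0.10, interval -0.38 to 0.05, adjusted p = 0.422), with 5.16 ± 0.10 in WLABA and 5.33 ± 0.15 in WL. The far-red difference was 0.15 without ABA (FR minus WL, adjusted p = 0.399) and -0.22 with ABA (FRABA minus WLABA, adjusted p = 0.435), and neither passed.

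The order of YUC2 levels was FR, WL, WLABA and FRABA from high to low, and no pair of neighbours in this order passed the test. Groups further apart did. FRABA was lower than WL by a log2 difference of -0.38 (SE 0.10, adjusted p = 0.024), and FR was higher than WLABA by 0.32 (SE 0.10, adjusted p = 0.0387). The first call was lost without FRABA replicate 1 (-0.31) or 3 (-0.37), without WL replicate 1 (-0.34) or 2 (-0.33), or with only these groups in the fit (adjusted p = 0.0653). The second was lost without any 1 of the FR or WLABA arrays, with values between 0.26 and 0.35, after centring each array on its median (0.28, adjusted p = 0.0558), or with an intensity-trended robust variance (adjusted p = 0.0641). The fall with ABA under far-red light was called under all alternatives, with differences between -0.61 and -0.47 when 1 array was left out.

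GH3.1, an auxin-amino acid synthetase of the auxin-inducible kind, was called absent on all 12 arrays. Its arrays lay between 3.05 and 3.25 log2 units in FRABA and between 2.72 and 3.05 in WLABA, with means of 3.09 ± 0.08 in FR and 3.01 ± 0.09 in WL (SD, n = 3 each). FRABA and WLABA did not overlap, though their nearest arrays both rounded to 3.05, and all other pairs of groups overlapped. No fold is given, because no group had a level above background. GH3.1 passed in 0 contrasts with limma under every setting that tested it, and at an unadjusted p under 0.05 in 0 contrasts as well.

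GH3.3, an enzyme that joins auxin to amino acids such as aspartate, and a common reporter of auxin response, reached 6.08, 6.49 and 5.94 log2 units in FR. It had 5.64, 5.28 and 5.60 in FRABA, 5.23, 5.49 and 5.51 in WLABA and 5.68, 5.74 and 5.47 in WL. All FR arrays lay above every array of the other groups, and those other groups overlapped each other. Far-red light without ABA raised GH3.3, with 6.17 ± 0.28 in FR and 5.63 ± 0.14 in WL (SD, n = 3 each). The difference was 0.54 (SE 0.14, interval 0.24 to 0.83, limma adjusted p = 0.035), or 1.45-fold. Adding ABA under far-red light lowered it, with 5.51 ± 0.20 in FRABA against 6.17 ± 0.28 in FR (-0.66, SE 0.14, adjusted p = 0.00687, 1.58-fold lower). FRABA and WL then differed by -0.12 (SE 0.14, interval -0.42 to 0.17, adjusted p = 0.632), which did not pass.

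With ABA present the far-red difference of GH3.3 was 0.093 (SE 0.14, interval -0.20 to 0.39, adjusted p = 0.834), with 5.51 ± 0.20 in FRABA and 5.41 ± 0.16 in WLABA. The ABA difference in white light was -0.22 (SE 0.14, adjusted p = 0.449), with 5.41 ± 0.16 in WLABA and 5.63 ± 0.14 in WL. From high to low the order was FR, WL, FRABA and WLABA, and the step between FR and WL was the only neighbouring step that passed. The far-red call without ABA was lost without FR replicate 2, the highest array (0.38, adjusted p = 0.147), without WL replicate 1 (0.56, adjusted p = 0.0881) or 3 (0.46, adjusted p = 0.137). It was also lost after median centring (0.44, adjusted p = 0.0677) or quantile normalization (0.45, adjusted p = 0.0771), and with only FR and WL in the fit (adjusted p = 0.0634). The median FR minus WL difference of all probe sets was -0.091 after centring and 0.0026 as deposited. The fall with ABA under far-red light was called under all alternatives, between -0.77 and -0.50 when 1 array was left out.

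WES1 (GH3.5) encodes an enzyme that conjugates auxin and also salicylic acid. Its level was 6.88, 7.03 and 7.34 log2 units in FRABA, 6.24, 6.44 and 6.45 in FR, 6.46, 6.51 and 6.69 in WLABA, and 5.74, 5.84 and 6.03 in WL. No 2 groups overlapped, although the highest FR array (6.45) and the lowest WLABA array (6.46) lay close together. In white light WES1 rose with ABA, with 6.55 ± 0.12 in WLABA and 5.87 ± 0.15 in WL (0.68, SE 0.12, interval 0.43 to 0.93, limma adjusted p = 0.00203, 1.61-fold). Under far-red light it rose by as much, with 7.08 ± 0.23 in FRABA and 6.38 ± 0.12 in FR (0.71, SE 0.12, interval 0.46 to 0.96, adjusted p = 0.00149, 1.63-fold). Both ABA calls were kept under all alternatives.

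Far-red light without ABA raised WES1 by 0.51 (FR against WL, SE 0.12, adjusted p = 0.0229, 1.42-fold). With ABA the difference was 0.53 (FRABA against WLABA, SE 0.12, interval 0.28 to 0.78), at an unadjusted p of 4.2e-04 but an adjusted p of 0.0822, and so was not called. Only 49 of the 22746 probe sets, 0.215%, had a far-red difference this high or higher with ABA. This difference did pass with array weights (0.52, adjusted p = 0.0376), with an intensity-trended robust variance (0.53, adjusted p = 0.0285) and with the replicate number as a block (0.53, adjusted p = 0.0117). The far-red call without ABA was lost without FR replicate 2 (0.47, adjusted p = 0.089) or 3 (0.47, adjusted p = 0.0769) or WL replicate 1 (0.44, adjusted p = 0.0976). FRABA exceeded WL by 1.21 (SE 0.12, interval 0.96 to 1.46, adjusted p = 7.0e-06), or 2.32-fold, and 100 probe sets (0.44%) rose as far or farther. From high to low the order was FRABA, WLABA, FR and WL. WLABA and FR, the middle neighbours, did not differ past the threshold (FR minus WLABA -0.18, adjusted p = 0.344).

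**Figure D2:**
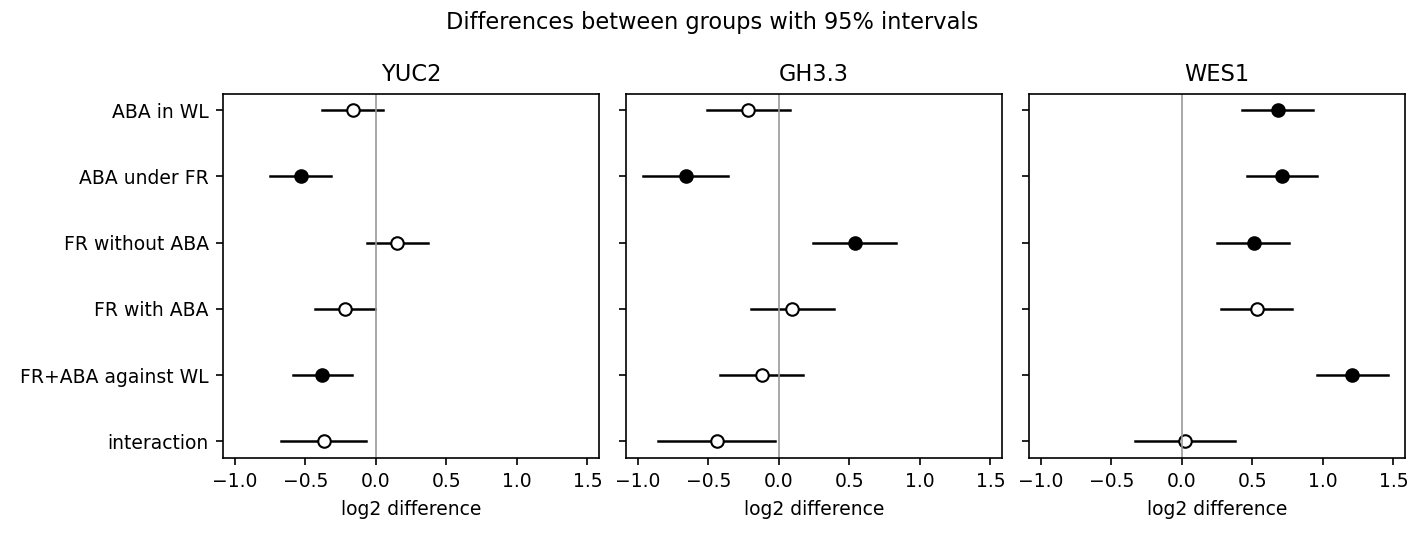
Log2 differences (horizontal axis) of YUC2, GH3.3 and WES1 in the 4 single-factor comparisons, in FRABA against WL and in the interaction. Points are limma estimates with 95% intervals, filled where the adjusted p was below 0.05. The ABA difference under far-red light was -0.53 for YUC2, -0.66 for GH3.3 and 0.71 for WES1.

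Set against the whole array, the counts read as follows. For ABA in white light 1 of the 4 members was called, higher, where 6.43% of all probe sets were called, 4.02% higher and 2.41% lower. The higher share of those calls was 62.5% as deposited and 43.9% with each array centred on its median. Under far-red light 3 of 4 members were called for ABA, WES1 higher and GH3.3 and YUC2 lower, where 10.3% of probe sets were called, 5.06% higher and 5.28% lower (48.9% of calls higher, and 59.6% after centring). For far-red light without ABA, 2 of 4 rose, where 6.12% of probe sets were called, 3.87% higher and 2.26% lower (63.2% of calls higher, 49.8% after quantile normalization and 23.2% after centring). For far-red light with ABA 0 of 4 were called by limma, where 0.369% of probe sets were called, 0.0791% higher and 0.29% lower. At an unadjusted p under 0.05 there were 2 of 4, WES1 higher and YUC2 lower, where 11.3% of all probe sets had such a p. In FRABA against WL 1 rose and 1 fell, where 10.6% were called, 6.48% higher and 4.08% lower (61.4% of calls higher, and 39.1% after centring). In FR against WLABA, GH3.3 (0.75, SE 0.14, limma adjusted p = 0.00166) and YUC2 were higher, where 18% were called, 10% higher and 7.99% lower (55.6% of calls higher, and 44.8% after centring). These comparisons share groups with each other, so their counts are not independent. The members were chosen with earlier results of these data known, so their counts do not test whether such genes respond more often.

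The ABA effects in the 2 lights were then compared through the interaction, which is the ABA difference under far-red light minus that in white light. No member passed, and 0% of probe sets were called by limma, while 6.44% had an unadjusted p under 0.05. For WES1 the interaction was 0.024 (SE 0.17, interval -0.33 to 0.38, adjusted p = 0.992). Adding both single differences to the WL mean gave 7.06 log2 units for WES1, and the FRABA mean was 7.08. For GH3.3 the interaction was -0.44 (SE 0.20, interval -0.86 to -0.024, unadjusted p = 0.0397, adjusted p = 0.763), with a FRABA mean of 5.51 and a sum of 5.95. For YUC2 it was -0.37 (SE 0.14, interval -0.67 to -0.069, unadjusted p = 0.0193, adjusted p = 0.755), with a FRABA mean of 4.95 and a sum of 5.32. A stronger ABA fall of GH3.3 and YUC2 under far-red light than in white light was thus not shown past the threshold, and their intervals reach close to 0.

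Averaged over the lights, ABA lowered YUC2 by a log2 difference of -0.35 (SE 0.07, limma adjusted p = 0.00283) and GH3.3 by -0.44 (SE 0.10, adjusted p = 0.00563). It raised WES1 by 0.70 (SE 0.08, adjusted p = 3.3e-05). These 3 calls compare with 17.2% of all probe sets, 8.64% higher and 8.57% lower. Averaged over the ABA levels, far-red light raised WES1 by 0.52 (SE 0.08, adjusted p = 0.00199), where 9.28% of probe sets were called, 5.3% higher and 3.98% lower (57.1% of calls higher, and 28.8% after centring). GH3.3 had an averaged far-red difference of 0.31 (SE 0.10, adjusted p = 0.0569) and YUC2 one of -0.032 (SE 0.07, adjusted p = 0.816).

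Of the 36 listed auxin synthesis genes 4 were measured, in that a probe set was named for them alone, all of the YUC family. With ABA under far-red light 2 of 4 fell, YUC2 and YUC4, where 5.28% of all probe sets were called lower. The list median was -0.34, where the median over all probe sets was -0.015. Of the 4, only YUC2 was called present on more than 1 array, so this median rests mostly on genes with little or no detection. YUC4, which acts with YUC1, YUC2 and YUC6 in floral and vascular development, was called absent on all FRABA arrays and present on 1 of 3 FR arrays. It averaged 3.21 ± 0.08 log2 units in FRABA and 3.73 ± 0.16 in FR, so its mean was 1.43-fold lower in FRABA (limma adjusted p = 0.00304). Absent calls in both groups place these levels near background. YUC4 was also higher in FR than in WLABA (0.49, limma adjusted p = 0.00217), where it was called absent on all WLABA arrays. Averaged over the lights, ABA lowered YUC4 (-0.34, adjusted p = 0.00233). With far-red light alone 0 of 4 were called, and YUC4 averaged 3.73 ± 0.16 in FR and lay between 3.28 and 3.47 in WL (adjusted p = 0.054, and 0.0396 after quantile normalization). YUC6, at 4.13 to 4.63 log2 units, and YUC11, a gene of embryo patterning at 3.22 to 3.58, were called absent on all 12 arrays and were called different in none of the 4 single-factor comparisons. None of the 4 passed with ABA in white light or with far-red light in the presence of ABA.

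Of 19 listed GH3 genes 5 were measured, including the 3 members. GH3.17, which conjugates auxin to glutamate and acts on hypocotyl elongation, was present on all 12 arrays. Its levels were 6.10 ± 0.08 in FRABA, 6.21 ± 0.18 in FR, 5.82 ± 0.05 in WLABA and 5.98 ± 0.08 in WL. It passed in none of the 4 single-factor comparisons, with far-red differences of 0.28 with ABA (SE 0.09, adjusted p = 0.27) and 0.23 without (SE 0.09, adjusted p = 0.172). In FR against WLABA it was higher (0.38, SE 0.09, limma adjusted p = 0.0104), a call lost without FR replicate 3 (0.30). Its averaged far-red difference of 0.25 passed (SE 0.07, adjusted p = 0.0297), but was lost without any 1 of 6 arrays and under both other scalings (0.20 in each). Its averaged ABA difference was -0.13 (SE 0.07, adjusted p = 0.213). GH3.9, linked to root growth, was present on 7 of 12 arrays at 3.82 to 4.63 log2 units and passed in no contrast. The 5 GH3 genes include GH3.1, which was not detected, and the 3 members among them were chosen with earlier results of these data known. The median ABA difference of the 5 genes was -0.16 in white light and -0.094 under far-red light. Their median far-red difference was 0.23 without ABA and 0.20 with ABA. The corresponding medians over all probe sets were -0.0022, -0.015, 0.0026 and -0.0035. For far-red light without ABA the GH3 median was the value of GH3.17, which was not called, and GH3.9 differed the other way (-0.24). These medians are descriptions and do not test whether the family responds.

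**Figure D3:**
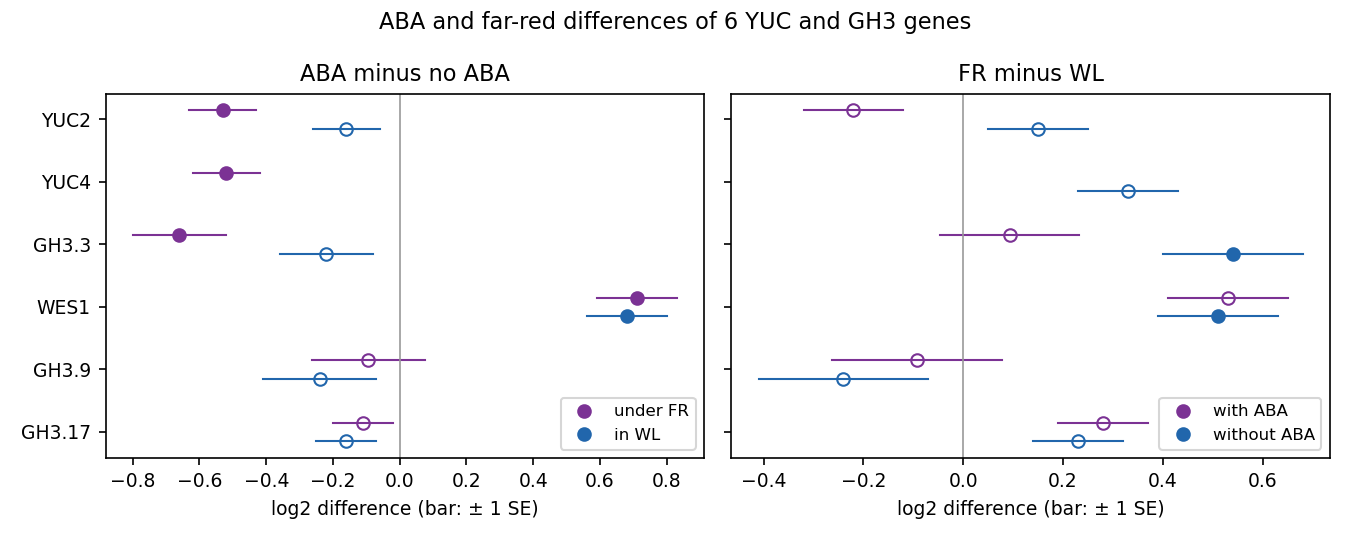
Log2 differences (horizontal axis, bars ± 1 SE, n = 3 against 3) of 6 YUC and GH3 genes, with ABA minus no ABA on the left for each light and far-red minus white light on the right for each ABA level. Filled points had a limma adjusted p below 0.05, and comparisons in which a gene was present on no array are left out. WES1 has the only filled points to the right of 0 for ABA, at 0.71 under far-red light and 0.68 in white light.

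**Figure D4:**
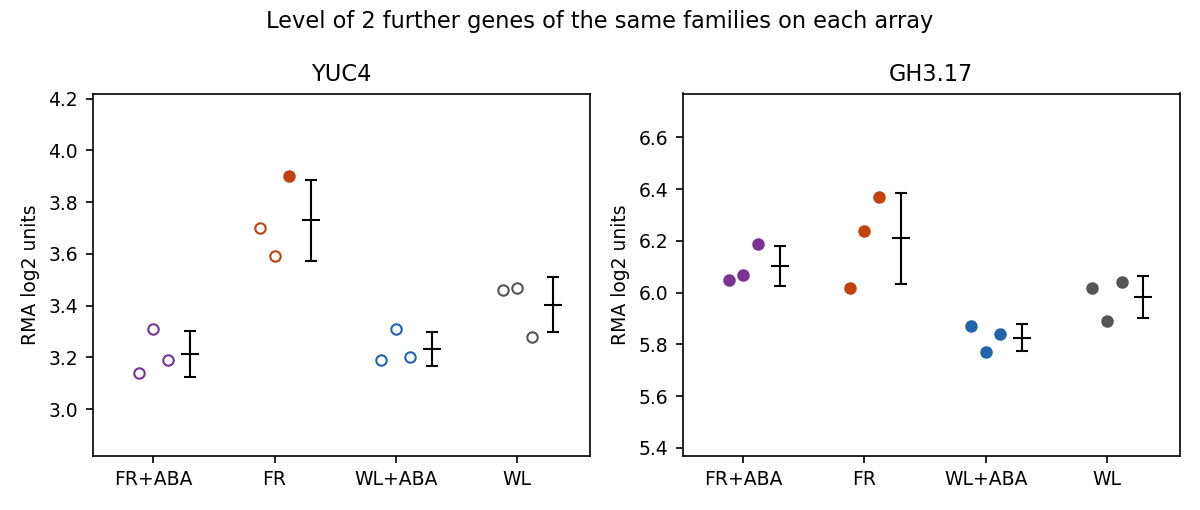
RMA log2 level (vertical axis) of YUC4 and GH3.17 on every array of FRABA (FR+ABA), FR, WLABA (WL+ABA) and WL, filled where called present, with mean ± SD (n = 3). YUC4 was called present on 1 FR array only, and GH3.17 averaged 5.82 in WLABA and between 5.98 and 6.21 in the other groups.

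The remaining auxin lists gave 1 called gene in the 4 single-factor comparisons. Of 20 genes listed as linked to other auxin inactivation, 3 were measured and 0 were called by limma. They were UGT84B1, an auxin glucosyltransferase absent on all arrays (-0.17 with ABA under far-red light), UGT74D1, a further auxin glycosyltransferase (0.25 with ABA under far-red light, SE 0.09, adjusted p = 0.108), and ILR3, a transcription factor named after resistance to an auxin conjugate (0.017, adjusted p = 0.942). Neither of the 2 measured of 32 transport genes and none of the 3 measured of 89 early auxin genes passed. Of 63 perception and response genes 7 were measured, all Aux/IAA genes, and IAA29 rose with far-red light without ABA (the fold above) and with ABA (adjusted p = 0.00429). With ABA present IAA29 averaged 4.65 ± 0.08 in FRABA and 3.83 ± 0.18 in WLABA, where it was present on no array.

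The genes whose levels followed each member most closely over the 12 arrays were ranked by Pearson correlation among 8416 probe sets of a named gene called present on at least 3 arrays. These correlations are descriptions over arrays of 4 treatment groups, so differences between the groups enter into them. For WES1 they were AT1G80130 (r = 0.947), AT2G04570 (0.943) and AT1G59740 (0.940). AT1G80130 averaged 8.71 log2 units in FRABA, 7.48 in FR, 7.70 in WLABA and 6.24 in WL, the same order of groups as WES1. For GH3.3 they were NRPC2, a subunit of RNA polymerase III (0.961), AT4G19610 (0.95) and AT2G18330 (0.945). NRPC2 averaged 6.49 in FRABA, 6.98 in FR, 6.32 in WLABA and 6.55 in WL. For YUC2 they were AT3G58090 (0.925), AT1G61730 (0.915) and the transcription factor gene ATMYC1 (0.901), which averaged 6.01 in FRABA, 6.45 in FR, 6.12 in WLABA and 6.30 in WL. Ranking by Spearman correlation gave 0 of the same 3 genes for each member.

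**Figure D5:**
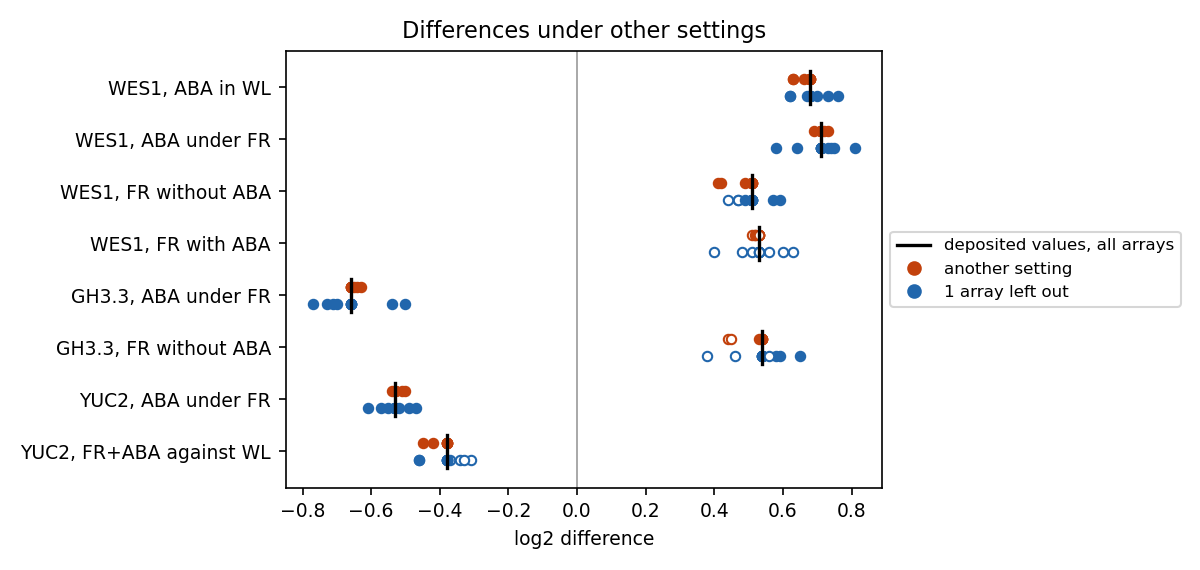
Log2 differences (horizontal axis) of WES1, GH3.3 and YUC2 with the deposited values and all arrays (vertical bars), under another setting (orange) and with 1 array left out (blue). Points are filled where the limma adjusted p was below 0.05. The ABA differences of WES1 (0.58 to 0.81 under far-red light with 1 array left out), GH3.3 and YUC2 under far-red light are filled throughout, and those of far-red light are not.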

How the data were processed

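Per the submitters' processing notes, the authors made the deposited log2 values with RMA (affy) and the detection calls with MAS5. No versions or build were stated, so no coordinates are printed. RMA corrects background, normalizes between arrays and summarises the probes of a set, which compresses low values. Both deposited tables held the same values to within 5.0e-09. Of 22810 probe sets, 64 controls were left out. Names came from the platform table (13513 probe sets with 1 gene, 503 with several, 8794 not listed, controls included) and 13436 were matched to RefSeq (TAIR10.1). None of the 4 members has a probe set of the kind shared between genes, and 3 of 4 passed the filter of a present call on at least 3 arrays.

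Groups came from the sample titles. limma 3.58.1 in R 4.3.3 fitted a mean per group on all 12 arrays (8 residual degrees of freedom, prior 7.21), with contrasts, eBayes and two-sided Benjamini-Hochberg adjusted p-values over 22746 probe sets. The script was tested on simulated data. Where a gene was called absent on every array of its lower group, its own value there was compared with the lowest value called present on that array (2.46 to 2.80 log2 units). The higher of these was used for the fold. For YUC4 and IAA29 the gene's own value was the higher, so their folds are between group means and are not lower bounds. Figures used matplotlib 3.10.9.

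The members and lists were chosen with earlier results of these data known. All measured YUC and GH3 genes and those of the other inactivation list are named. Members of other lists are named where they passed in a pairwise comparison, as are some tissue and treatment markers that did not. The 3 most alike genes per member are also named. Alternatives were median centring, quantile normalization, a present-call filter, a trended robust variance, array weights, only the compared groups, the replicate number as a block, each array left out in turn, and averaging a gene's probe sets.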

Additional observations from a re-analysis of the deposited data

Results flagged for a closer look

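The mean far-red difference of YUC2 had opposite signs at the 2 ABA levels, but neither passed (limma adjusted p = 0.435 with ABA and 0.399 without). The groups overlapped in both comparisons. With ABA every FRABA array lay below the WLABA mean, by -0.35 to -0.06 log2 units, with a mean difference of -0.22. Without ABA every FR array lay above the WL mean, by 0.084 to 0.25, with a mean difference of 0.15. The interaction, which tests this difference, was -0.37 (limma unadjusted p = 0.0193, adjusted p = 0.755), so it did not pass over all probe sets. YUC2 was flagged for these opposite signs in the same arrays, so the unadjusted p follows that choice.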

How the results depend on the processing

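The ABA differences of WES1 in both lights, and of YUC2 and GH3.3 under far-red light, stayed past the threshold under every alternative run. The far-red difference of GH3.3 without ABA missed it after median centring (0.44), quantile normalization (0.45) and with only FR and WL in the fit (0.54). The FR against WLABA difference of YUC2 missed it after centring (0.28) and with a trended robust variance (0.32), and its FRABA against WL difference with only those groups (-0.38). The averaged far-red difference of GH3.3 passed with the present-call filter (0.31) and the trended variance (0.31). The far-red difference of WES1 with ABA passed with the trended variance (0.53), with array weights (0.52) and with the replicate block (0.53). With the trended variance 149 probe sets were called for far-red light with ABA, and 137 with array weights, against 84, and 2 for the interaction, against 0. With only FR and WL in the fit 642 were called, against 1393. The causes of these changes were not tested.

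Leaving out 1 array gave ranges of 908 to 1510 calls for ABA in white light, 1518 to 2434 for ABA under far-red light, 418 to 1689 for far-red light without ABA and 31 to 81 with ABA. They were 1492 to 2371 for FRABA against WL, 0 to 2 for the interaction, 1133 to 2571 for averaged far-red light and 2719 to 4184 for FR against WLABA. Without FR replicate 2, 418 probe sets were called for far-red light without ABA. The far-red difference without ABA ranged from 0.38 to 0.65 for GH3.3 and from 0.44 to 0.59 for WES1. YUC2 ranged from -0.46 to -0.31 in FRABA against WL and from 0.26 to 0.35 in FR against WLABA. The averaged far-red difference ranged from 0.24 to 0.37 for GH3.3 and from -0.074 to 0.0012 for YUC2, whose sign turned without FRABA replicate 1 (0.0012). The interaction of WES1 ranged from -0.10 to 0.12 and turned sign without FRABA replicate 3 (-0.10), FR replicate 1 (-0.045), WLABA replicate 1 (-0.022) or WL replicate 3 (-0.056). None of these uncalled values passed the threshold after turning.

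The replicate numbers were checked for pairing. Over 18 same-numbered pairs of arrays the correlation of deviations from the group means was -0.051 to 0.273 (median 0.092, 8 over 0.1). Over 36 pairs with different numbers it was -0.211 to 0.133 (median -0.04, 2 over 0.1). In all, 12 of 12 arrays correlated best with their own number, a hint from the data and not from the design. With the replicate block 1760 probe sets were called for ABA in white light, 2694 for ABA under far-red light, 1762 for far-red light without ABA and 103 with ABA, and it changed no call of a member other than that of WES1 above.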
